A study of Homo sapiens with 12 samples.

Results

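The genes described here are 9 classical targets of the transcription factor NRF2, several of which make, import or use glutathione: HMOX1, NQO1, GCLM, GCLC, TXNRD1, SRXN1, SLC7A11, ME1 and OSGIN1. They were chosen by symbol, as a list of known targets, and each symbol matched 1 Ensembl gene among the 58735 genes of the count table. All 9 passed the filter on low counts in every comparison below. Expression was measured by RNA sequencing in HEC-1A, a cell line from an endometrial adenocarcinoma that grows as epithelial-like cells, and in T-HESC, endometrial stromal fibroblasts immortalised with telomerase. Cells received AG-205 (15 µM), a compound sold as a ligand of the progesterone receptor membrane component PGRMC1, or DMSO, its solvent, and were harvested after 32 h. There were 3 libraries in each of the 4 groups (HEC-1A DMSO, HEC-1A AG-205, T-HESC DMSO and T-HESC AG-205), 12 in all, and each line stands for 1 donor. By the study's methods the RNA came from separate culture experiments, 3 in number, so the libraries of a group are replicate cultures of 1 line.

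NRF2 (gene NFE2L2) is a leucine zipper factor that the adaptor KEAP1 hands to a ubiquitin ligase for degradation in unstressed cells. Electrophiles and oxidants modify KEAP1, NRF2 accumulates, pairs with small MAF proteins and binds antioxidant response elements in its target genes, while BACH1 competes for the same elements, most strongly at HMOX1. The targets include the enzymes of glutathione synthesis, the cystine importer, the thioredoxin system, suppliers of NADPH, and enzymes that break down quinones and heme.

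The letters of these elements were looked for in RefSeq promoter windows (GRCh38.p14, 250 bases before to 50 bases after a transcription start), which were found for 7 of the 9 genes, in 8 windows; HMOX1 and SLC7A11 were not among them. The core TGACNNNGC, searched on both strands, was present for 3 of the 7 genes, beside 13.3% of all 35116 windows of that length. That share counts windows and not genes, and TXNRD1 had 2 windows. GCLM held 1 match, TXNRD1 held 3 over its 2 windows and ME1 held 2. For each gene 1 match is shown with 20 bases on either side, written on the strand of the gene with the match in capitals, because this is the feature through which the factor is known to read its targets. The remaining matches of TXNRD1 and ME1 are not shown. The GCLM and TXNRD1 matches shown are on the opposite strand, so their capitals are the reverse complement of the core.
GCLM, starting 34 bases before the start: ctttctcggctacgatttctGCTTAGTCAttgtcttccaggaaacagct
TXNRD1, starting 102 bases before the downstream start: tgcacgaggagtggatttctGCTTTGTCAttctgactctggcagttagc
ME1, starting 137 bases before the start: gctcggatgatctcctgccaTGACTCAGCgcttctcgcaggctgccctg
The GCLM stretch lies at chr1:93909436-93909484 on the minus strand, the TXNRD1 stretch at chr12:104286910-104286958 on the plus strand and the ME1 stretch at chr6:83431160-83431208 on the minus strand. The first 7 letters of the ME1 match, TGACTCA, also match the AP-1 letters TGANTCA, which 7.71% of all windows held. The OSGIN1 window belongs to an internal RefSeq start, downstream of the first base that GENCODE 44 gives the gene. It held TGANTCA starting 97 bases before that start (chr16:83953123-83953169, plus strand) and no TGACNNNGC.
OSGIN1, internal start: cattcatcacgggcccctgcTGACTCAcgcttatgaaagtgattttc
A match says only that these letters are in the window. Elements outside these windows were not looked for, so a window without a match does not show that a gene lacks one.

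Library totals ran from 7168542 to 15178276 counts. Levels are in CPM (counts relative to library size) on 1 scale over all 12 libraries (trimmed mean of M-values, TMM), and fold changes come from edgeR's quasi-likelihood test within a line, with p-values adjusted over all genes tested by the Benjamini-Hochberg method. A gene passed at an adjusted p under 0.05, and was called when its log2 fold change was also above 1 or below -1. The summed level of 8 stromal markers was 13200 to 27200 CPM in T-HESC and 10.7 to 16.3 CPM in HEC-1A. EPCAM, 1 of 8 epithelial markers, reached 256 CPM in HEC-1A and 0.64 CPM in T-HESC. Both go with the labels of the lines, but the epithelial marker KRT19 did not separate them. The summed level of the 8 epithelial markers was 1480 to 1640 CPM in HEC-1A DMSO and 2190 to 2260 CPM in HEC-1A AG-205, and its part in the results was not tested. It was 221 to 388 CPM in T-HESC, where KRT19 gave at least 103 CPM. In HEC-1A KRT19 was 96.7 to 218 CPM. Among the T-HESC libraries, AG-205 replicate 1 stood apart on the first principal component (53.8% of the variance), at 77.7 with the other 5 between -29.4 and 1.83. In bulk RNA, fewer cells of a kind and less RNA per cell cannot be told apart.

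**Figure D1:**
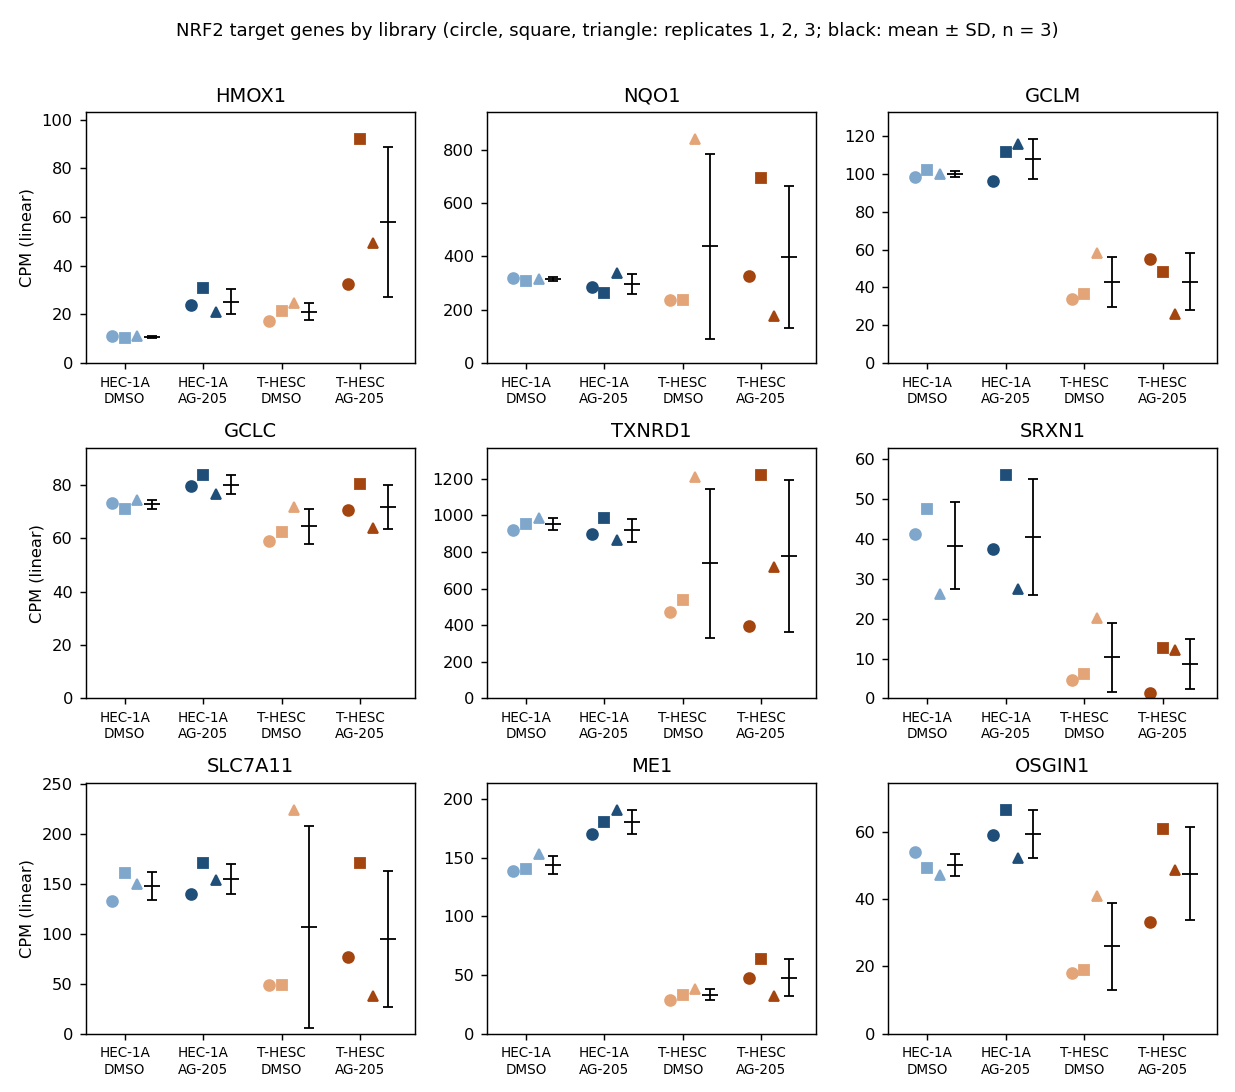
CPM on a linear axis from 0 for each of the 9 genes in the 4 groups; symbols are single libraries (circle, square and triangle for replicates 1, 2 and 3) and the black bar is the mean ± SD of 3 libraries. HMOX1 and ME1 separate in HEC-1A, and in T-HESC the DMSO triangle and the AG-205 square stand high for NQO1, TXNRD1 and SLC7A11.

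In HEC-1A, AG-205 raised HMOX1 and, by less, ME1, and none of the 9 genes passed in the lower direction. Of the 9 genes, 1 (HMOX1) was called higher, where 2.58% of the 14122 genes tested were, and 2 (HMOX1 and ME1) passed in the higher direction, where 7.35% of all genes did; 0 passed in the lower direction, where 4.28% did. The median log2 fold change of the 9 was 0.11, with 0.01 over all genes tested. The groups did not overlap, with AG-205 higher, for 3 of the 9 (HMOX1, ME1 and GCLC), beside 16.4% of all genes.

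HMOX1 encodes heme oxygenase 1, which opens the heme ring to give biliverdin, iron and carbon monoxide (chromosome 22, 35380361 to 35394214, plus strand; positions are those of GENCODE 44 on GRCh38). Its level in HEC-1A DMSO was 11.2, 10.4 and 11.0 CPM in replicates 1 to 3, and in HEC-1A AG-205 it was 23.8, 30.8 and 20.8 CPM. All 3 treated libraries lay above all 3 controls, which hardly differed among themselves. The fitted log2 fold change was 1.22 ± 0.15 (SE), a 2.33-fold rise, with an adjusted p of 2.15e-04 (edgeR). A single fit of all 12 libraries, in which the wider spread of T-HESC enters, gave the same size (1.21) with an adjusted p of 0.146, which ends the call; over the other 13 alternatives the gene stayed called.

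ME1 encodes the cytosolic malic enzyme, which turns malate into pyruvate and yields NADPH, also used in fatty acid synthesis (chromosome 6, 83210402 to 83431051, minus strand). It read 139, 140 and 153 CPM in HEC-1A DMSO and 170, 180 and 191 CPM in HEC-1A AG-205. The groups did not overlap, but the rise was small beside that of HMOX1. Its log2 fold change of 0.33 ± 0.09 (SE) passed at an adjusted p of 0.0382 and lay under the fold limit. It no longer passed without DMSO replicate 1, 2 or 3 (adjusted p = 0.155, 0.177 and 0.107), without AG-205 replicate 2 (0.0878) or in the fit of all 12 libraries (0.826), with log2 fold changes from 0.27 to 0.38 over all alternatives.

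OSGIN1 encodes oxidative stress induced growth inhibitor 1 (chromosome 16, 83931311 to 83966332, plus strand). Its HEC-1A levels were 53.9, 49.3 and 47.3 CPM with DMSO and 59.1, 66.5 and 52.2 CPM with AG-205. AG-205 replicate 3 fell below DMSO replicate 1, so the groups overlapped. The log2 fold change was 0.25 (95% CI 0.01 to 0.48, adjusted p = 0.163). Without AG-205 replicate 3, the shallowest library, it passed at 0.32 with an adjusted p of 0.00601.

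The genes of glutathione synthesis moved little in HEC-1A. GCLC and GCLM encode the catalytic and the modifier subunit of glutamate-cysteine ligase, the rate-limiting enzyme of the pathway (GCLC on chromosome 6, 53497341 to 53616970, and GCLM on chromosome 1, 93885199 to 93909456, both minus strand). GCLC was 70.8 to 74.2 CPM with DMSO and 76.7 to 83.7 CPM with AG-205, without overlap, at a log2 fold change of 0.14 (95% CI -0.05 to 0.33, adjusted p = 0.338). GCLM was 98.4 to 102 CPM with DMSO and 96.2 to 116 CPM with AG-205, and its log2 fold change was 0.11 (95% CI -0.10 to 0.32, adjusted p = 0.517). SLC7A11, the cystine and glutamate exchanger that brings in the cysteine for glutathione (chromosome 4, 138164097 to 138242349, minus strand), spanned 133 to 161 CPM with DMSO and 140 to 170 CPM with AG-205. Its log2 fold change of 0.07 (95% CI -0.16 to 0.29) left no room for a doubling.

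The same held for the thioredoxin reductase and quinone reductase genes. TXNRD1, the cytosolic enzyme that reduces thioredoxin with NADPH (chromosome 12, 104215779 to 104350307, plus strand), was 917, 952 and 983 CPM with DMSO and 898, 987 and 867 CPM with AG-205. NQO1, which reduces quinones in a single step of 2 electrons (chromosome 16, 69706996 to 69726668, minus strand), was 320, 307 and 317 CPM with DMSO and 286, 263 and 338 CPM with AG-205. Both sets of libraries overlapped. The log2 fold changes were -0.05 (95% CI -0.25 to 0.15) for TXNRD1 and -0.09 (95% CI -0.32 to 0.14) for NQO1, with adjusted p of 0.787 and 0.642. Without AG-205 replicate 3, NQO1 passed in the lower direction at a log2 fold change of -0.20 (adjusted p = 0.0454).

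SRXN1 encodes sulfiredoxin, which repairs overoxidised peroxiredoxins (chromosome 20, 646615 to 653200, minus strand), and it was the one of the 9 that varied widely within both HEC-1A groups. It read 41.2, 47.7 and 26.2 CPM with DMSO and 37.6, 56.2 and 27.6 CPM with AG-205. Replicate 3 was lowest and replicate 2 highest in each group. The log2 fold change was 0.09 (95% CI -0.42 to 0.60, adjusted p = 0.856). In GENCODE 44, 90.7% of the exon length of SRXN1 is shared with another protein-coding gene on the same strand (ENSG00000270299), so its counts depend on how shared reads were assigned and are uncertain.

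**Figure D2:**
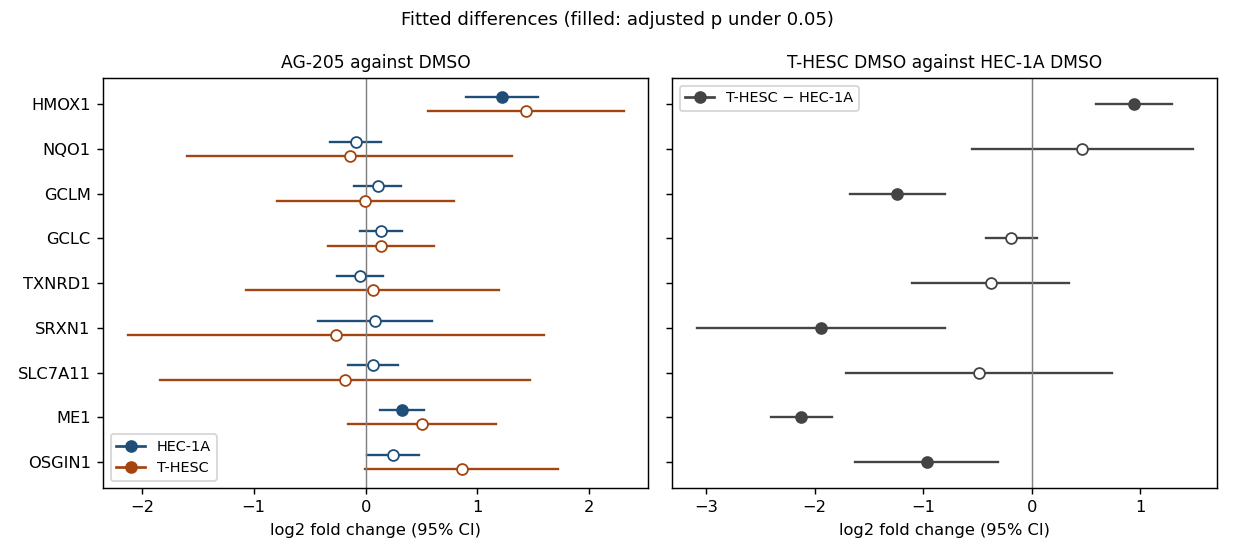
Fitted log2 fold changes with 95% confidence intervals for the 9 genes, AG-205 against DMSO in each line (left) and T-HESC DMSO against HEC-1A DMSO (right); filled points passed at an adjusted p under 0.05. HMOX1 lies at 1.43 in T-HESC against 1.22 for HEC-1A, while the intervals of NQO1, SRXN1 and SLC7A11 are several times as wide in T-HESC.

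In T-HESC none of the 9 genes passed in either direction with edgeR, where 0.0800% of the 13753 genes tested did. At an unadjusted p under 0.05 there was 1 of 9 (HMOX1), with 740 of all genes, and DESeq2 also passed 0. The groups did not overlap for 1 of the 9, again HMOX1 with AG-205 higher, beside 6.23% of all genes. The median log2 fold change of the 9 was 0.06, with 0.02 over all genes tested, and their median SE was 0.38, against 0.10 in HEC-1A.

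HMOX1 was 17.5, 21.5 and 24.6 CPM in T-HESC DMSO and 32.3, 91.9 and 49.4 CPM in T-HESC AG-205. Every treated library was above every control, but the treated libraries spanned a ratio of 2.85 between highest and lowest. The log2 fold change was 1.43 ± 0.38 (SE), or 2.70-fold, with an adjusted p of 0.450. Whether it passed depended on the test: the adjusted p was 0.0669 with DESeq2, 0.00377 without the filter on low counts, 0.0441 in the fit of all 12 libraries and 0.00416 with library quality weights, an alternative added after the data were seen. Over all 14 alternatives it ran from 0.00377 to 1, while the log2 fold change stayed positive, between 0.91 (without AG-205 replicate 2) and 1.89 (with library weights). Without AG-205 replicate 1, the library that stands apart, it was 1.72 with an adjusted p of 0.0562.

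OSGIN1 had the next largest value, at 18.1, 19.0 and 40.9 CPM with DMSO and 33.3, 60.8 and 48.7 CPM with AG-205. DMSO replicate 3 lay above AG-205 replicate 1, so the groups overlapped. The log2 fold change was 0.86 (95% CI -0.0030 to 1.72, adjusted p = 0.931), and 1.33 without DMSO replicate 3 (adjusted p = 0.775). With library quality weights it passed at 1.45 (adjusted p = 0.014), within a range of 0.014 to 1 over its alternatives.

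ME1 was 28.6, 33.3 and 38.3 CPM with DMSO and 47.2, 64.0 and 32.3 CPM with AG-205. AG-205 replicate 3 fell within the controls. The log2 fold change of 0.51 (95% CI -0.16 to 1.17, adjusted p = 0.993) was positive, as in HEC-1A, but was not told apart from 0.

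For NQO1, TXNRD1 and SLC7A11, a single library of T-HESC DMSO stood far above the others. In T-HESC AG-205 a single library was also highest, but the others lay apart from each other as well. NQO1 was 237, 237 and 838 CPM with DMSO and 327, 694 and 176 CPM with AG-205. TXNRD1 was 471, 535 and 1207 CPM with DMSO and 396, 1222 and 720 CPM with AG-205. SLC7A11 was 48.8, 48.4 and 224 CPM with DMSO and 76.2, 170 and 37.4 CPM with AG-205. In each case the 2 highest of the 6 libraries were DMSO replicate 3 and AG-205 replicate 2. The log2 fold changes were therefore close to 0 with wide intervals, at -0.14 (95% CI -1.60 to 1.31) for NQO1, 0.06 (95% CI -1.07 to 1.19) for TXNRD1 and -0.18 (95% CI -1.83 to 1.47) for SLC7A11. Without DMSO replicate 3, NQO1 was at 0.72 and SLC7A11 at 0.94, and without AG-205 replicate 2 TXNRD1 was at -0.44, none of them passing. A doubling in either direction lies inside each of these intervals and was not detectable with these libraries.

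SRXN1 had the fewest counts of the 9 in T-HESC, at 4.52, 6.13 and 20.3 CPM with DMSO and 1.28, 12.6 and 12.0 CPM with AG-205. AG-205 replicate 1 held 14 counts of it, the lowest of any of the 9 genes in any library. The log2 fold change was -0.26 (95% CI -2.12 to 1.60), and 0.25 without that library. The subunits of glutamate-cysteine ligase moved less: GCLM was 33.8 to 58.1 CPM with DMSO and 26.0 to 55.1 CPM with AG-205, and GCLC was 59.0 to 71.7 CPM and 63.9 to 80.3 CPM. Their log2 fold changes were -0.00099 (95% CI -0.79 to 0.79) and 0.14 (95% CI -0.33 to 0.61).

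**Figure D3:**
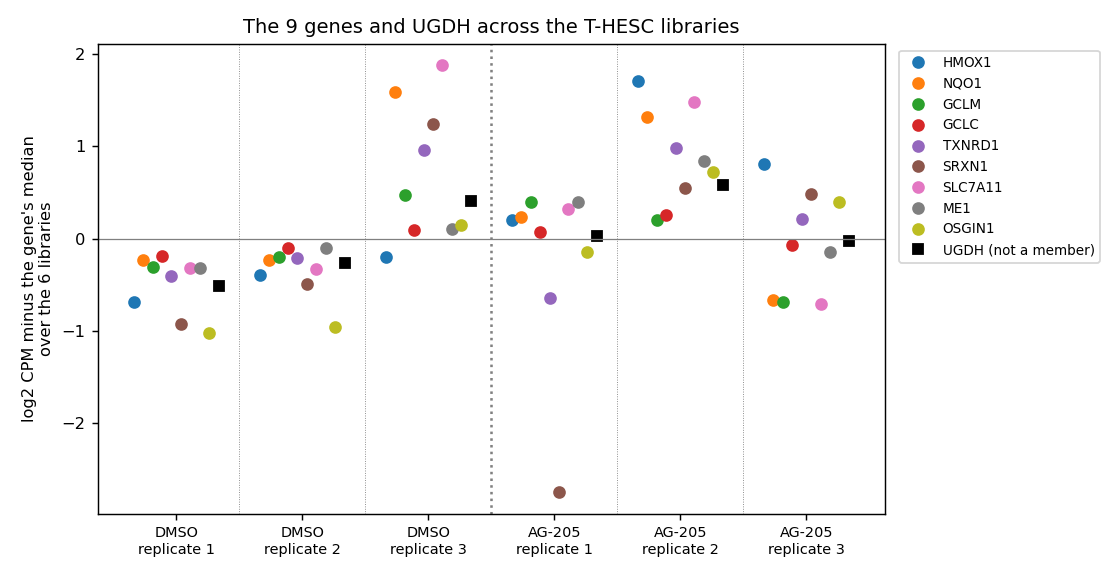
Each gene's log2 CPM minus its median over the 6 T-HESC libraries (vertical axis) in each library (horizontal axis), for the 9 genes and for UGDH, the gene outside the list with the most similar pattern. Most points stand above 0 in DMSO replicate 3 and in AG-205 replicate 2, and all lie below 0 in DMSO replicates 1 and 2.

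The spread between T-HESC libraries thus had a common direction for these genes. Within the DMSO group, replicate 3 held the highest level of 9 of the 9, where it did so for 39.5% of the 13753 genes tested. Within the AG-205 group, replicate 2 held the highest level of 8 of the 9 (GCLM was highest in replicate 1), where it did so for 24.7% of all genes. DMSO replicate 3 and AG-205 replicate 2 were together the 2 highest of the 6 libraries for 5 of the 9 (NQO1, GCLC, TXNRD1, SRXN1 and SLC7A11), as for 11.8% of all genes. These 2 libraries also deviated alike over all genes tested in T-HESC, where their deviations from the group means correlated at 0.719. The labels give no feature of these libraries that sets them apart from the others of their group, and the cause was not tested.

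The ratio of the highest to the lowest library of a group puts a size on it. In T-HESC DMSO the median ratio of the 9 was 2.26, with 1.34 over all genes tested; SLC7A11 (4.62), SRXN1 (4.49) and NQO1 (3.53) were among the most variable, and 2.25% of all genes had a ratio at least as large as that of SLC7A11. In T-HESC AG-205 the median of the 9 was 2.85, with 1.87 over all genes, and SRXN1 reached 9.81. In HEC-1A the 9 genes were no more variable than others: the median ratio was 1.07 with DMSO, against 1.16 over all genes, and 1.22 with AG-205, against 1.28. GCLC was steady in both lines, with ratios of 1.05 to 1.26 over the 4 groups.

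**Figure D4:**
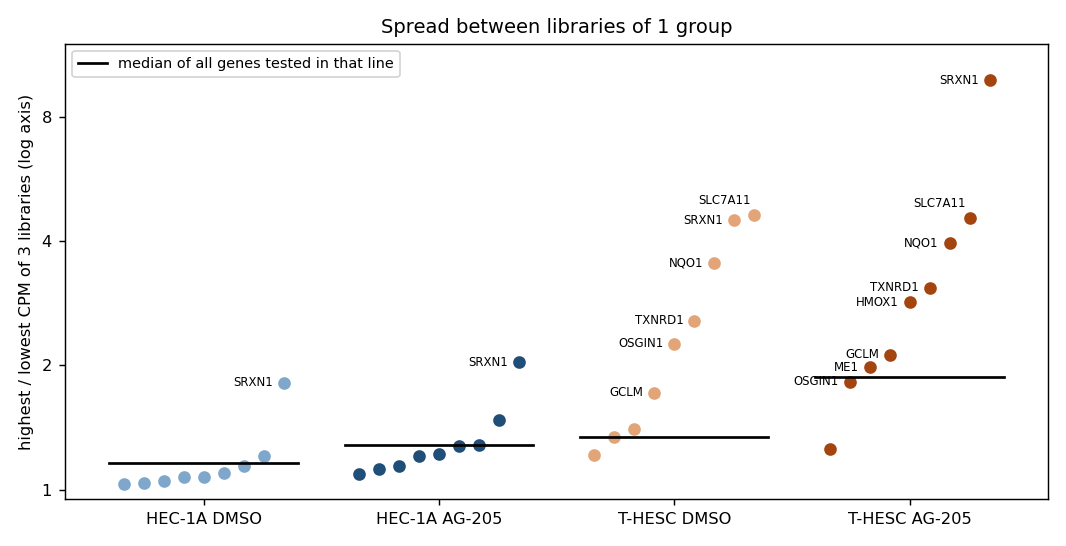
Ratio of the highest to the lowest CPM among the 3 libraries of a group (log axis) for each of the 9 genes, by group; the black line is the median of all genes tested in that line. In HEC-1A most points lie at or under the line, with SRXN1 above it, and in T-HESC most lie above it, up to 9.81 for SRXN1.

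The response to AG-205 was not shown to differ between the lines for any of the 9 genes. The test of the difference, T-HESC effect minus HEC-1A effect over all 12 libraries, passed 0 of 9 with edgeR, where 0.174% of 16132 genes passed, and 0 of 9 had an unadjusted p under 0.05. DESeq2 also passed 0, and library quality weights passed 1 (OSGIN1, 1.16, adjusted p = 0.0239; its range over all alternatives was 0.0239 to 1). The difference was 0.24 (95% CI -0.72 to 1.20) for HMOX1, 0.20 (95% CI -0.46 to 0.85) for ME1 and 0.63 (95% CI -0.28 to 1.54) for OSGIN1. These intervals are wide, so the lines cannot be said to respond alike.

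Without AG-205 the lines differed in the levels of some of these genes, as they did for many of all genes tested. Compared with HEC-1A DMSO, T-HESC DMSO held less GCLM, SRXN1, ME1 and OSGIN1 and more HMOX1. In the lower direction 4 of the 9 passed, where 36.0% of the 14789 genes tested did, and 1 passed in the higher direction, where 36.1% did; 3 were called lower (GCLM, SRXN1 and ME1), beside 22.3% of all genes. Differences between the lines were this common among all genes, so these counts do not set the 9 apart. The median log2 fold change of the 9 was -0.49, with -0.02 over all genes.

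ME1 showed the largest gap, at 139 to 153 CPM in HEC-1A DMSO and 28.6 to 38.3 CPM in T-HESC DMSO (log2 fold change -2.12 ± 0.12 (SE), adjusted p = 8.26e-07). SRXN1 followed at -1.94 ± 0.50 (SE) (adjusted p = 0.00705) and GCLM at -1.24 ± 0.19 (SE) (adjusted p = 3.78e-04). OSGIN1 was lower by less, at -0.97 ± 0.29 (SE) (adjusted p = 0.0142). Its adjusted p ran from 1.07e-10 to 0.0524 over its 13 alternatives, so it did not pass in all of them. HMOX1 went the other way, at 0.94 ± 0.15 (SE) (adjusted p = 5.37e-04), and its controls of the 2 lines did not overlap.

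The comparison of the lines rested in part on T-HESC DMSO replicate 3. Without it, 9 of the 9 passed, 8 lower in T-HESC and HMOX1 higher, where 39.0% and 39.7% of all genes passed in these directions. SLC7A11 went from -0.49 to -1.58 (adjusted p = 1.8e-12), TXNRD1 from -0.38 to -0.89 (adjusted p = 1.17e-08), and NQO1 turned from 0.46 to -0.38 (adjusted p = 2.52e-04). Over all 13 alternatives the adjusted p ran from 0.000252 to 0.559 for NQO1 and from 1.8e-12 to 0.851 for SLC7A11.

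For HMOX1 the order of the groups by mean CPM was HEC-1A DMSO (10.9 ± 0.40, SD, n = 3), T-HESC DMSO (21.2 ± 3.56), HEC-1A AG-205 (25.2 ± 5.12) and T-HESC AG-205 (57.9 ± 30.7). The second and the third overlapped, and HEC-1A DMSO lay below every library of the other groups. Per kilobase of exon, which allows genes to be compared with each other, TXNRD1 was highest in HEC-1A DMSO (142 CPM per kb), followed by NQO1 (106) and ME1 (43.2), with HMOX1 lowest (4.72). In T-HESC DMSO NQO1 (147) and TXNRD1 (110) led and SRXN1 (4.08) was lowest, with OSGIN1 (4.68) next to it.

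The wider pathway was read from 6 lists of 93 genes in all, none of them among the 9: NRF2 regulators, glutathione synthesis and use, thioredoxins and peroxiredoxins, NADPH supply, heme and quinone handling, and superoxide and peroxide enzymes. In HEC-1A 8 of the 85 genes tested passed in the higher direction and 1 in the lower, beside 7.35% and 4.28% of all genes. The median log2 fold change of these genes was 0.02. The HEC-1A counts for single lists given below stand beside the same shares of all genes. In T-HESC 0 of 88 passed with edgeR, and in the test of the difference 0 of 90. The T-HESC median was 0.25, where that of all genes was 0.02.

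Among the regulators, MAFG, a small MAF partner of NRF2, passed in HEC-1A at 134 to 142 CPM with DMSO and 158 to 177 CPM with AG-205 (log2 fold change 0.31, adjusted p = 0.0379), as 1 of 10 genes. NFE2L2 itself was 79.3 to 84.1 CPM with DMSO and 92.2 to 109 CPM with AG-205 (0.26, adjusted p = 0.106), and KEAP1 was at -0.17 (adjusted p = 0.265). BACH1, the repressor, was at -0.13 (adjusted p = 0.551) in HEC-1A. In T-HESC, BACH1 was 59.6 to 66.3 CPM with DMSO and 90.0 to 106 CPM with AG-205 (0.61, adjusted p = 0.638), without overlap. MAFG (0.76, adjusted p = 0.558) was also higher there without overlap. So was MAFF, another small MAF, picked after its values were seen (1.06, adjusted p = 0.522). The T-HESC groups overlapped for NFE2L2 (0.11) and KEAP1 (-0.07). SQSTM1, the autophagy receptor that binds KEAP1, was chosen here after its values were seen: it read 458, 513 and 579 CPM in T-HESC DMSO and 813, 1508 and 2101 CPM in T-HESC AG-205 (1.49 ± 0.36 (SE), adjusted p = 0.394). In HEC-1A its log2 fold change was 0.21 (adjusted p = 0.228).

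In the glutathione list 2 of 31 tested genes passed in HEC-1A, in the higher direction, beside 7.35% of all genes. They were ABCC2, an exporter of glutathione conjugates, at 11.5 to 13.0 CPM with DMSO and 17.6 to 22.9 CPM with AG-205 (log2 fold change 0.67, adjusted p = 0.0072), and MGST3, a membrane-bound glutathione transferase (0.43, adjusted p = 0.0412). GSR, which reduces oxidised glutathione with NADPH, was at -0.27 (adjusted p = 0.0576), GSS, the second enzyme of synthesis, at -0.02 and GPX4, the phospholipid hydroperoxidase, at 0.02. In the thioredoxin list 1 of 12 passed, PRDX5 (0.42, adjusted p = 0.0166), with PRDX1 at 0.02.

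In the NADPH list 2 of 10 passed in HEC-1A, PGD and IDH1, which like ME1 generate cytosolic NADPH. PGD was 155 to 162 CPM with DMSO and 236 to 237 CPM with AG-205 (log2 fold change 0.59, adjusted p = 7.29e-04). IDH1 was 207 to 214 CPM with DMSO and 316 to 372 CPM with AG-205 (0.67, adjusted p = 8.56e-04). In T-HESC IDH1 was 61.7, 63.9 and 77.7 CPM with DMSO and 188, 231 and 113 CPM with AG-205, without overlap (1.38 ± 0.30 (SE), adjusted p = 0.312).

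In the heme and quinone list 3 of 19 passed in HEC-1A, 2 higher and 1 lower. FLVCR1, a heme exporter, rose, with 23.3 to 24.4 CPM under DMSO and 39.8 to 43.4 CPM under AG-205 (log2 fold change 0.78, adjusted p = 2.41e-04). SLC48A1, which moves heme out of the endosome into the cytosol, fell, with 602 to 659 CPM under DMSO and 417 to 499 CPM under AG-205 (-0.44, adjusted p = 0.0121). ABHD4, a lipase of N-acyl phospholipids, was the only gene of the 6 lists called, at 37.5 to 39.0 CPM and 72.1 to 82.2 CPM (1.04, adjusted p = 1.37e-05). FTH1, the ferritin heavy chain, was at 0.41 (adjusted p = 0.0513). In the superoxide and peroxide list 3 of 4 symbols were matched (SOD2 was not) and 0 of 3 passed with edgeR, CAT being at 0.16 and SOD1 at -0.03.

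**Figure D5:**
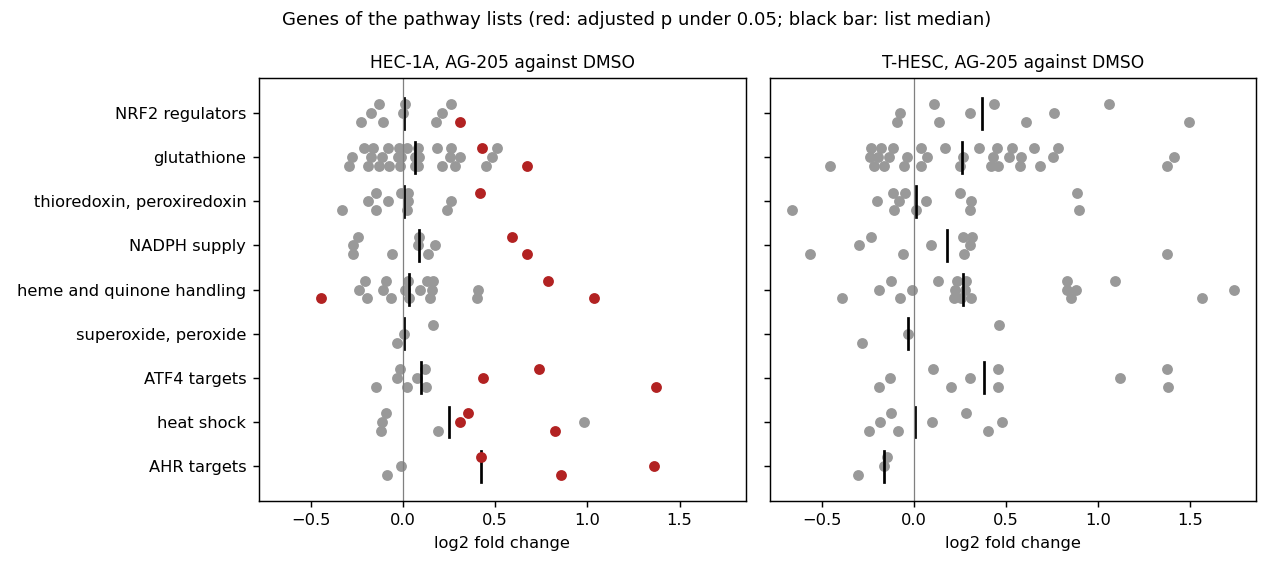
Log2 fold changes with AG-205 for the genes of 9 lists in HEC-1A (left) and T-HESC (right) on 1 horizontal scale; each point is a gene, red points passed at an adjusted p under 0.05 and the black bar is the median of the list. In HEC-1A 8 red points of the first 6 lists lie to the right of 0 and SLC48A1 to the left, and no point is red in T-HESC.

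HMOX1 is known to answer to other stress pathways too, so 3 more lists were read. Whether these pathways had a part in its rise was not tested. The counts of these lists in HEC-1A stand beside the 7.35% of all 14122 genes that passed in the higher direction. Of 10 tested ATF4 targets of the integrated stress response, 3 passed higher: ATF3 (log2 fold change 1.37, adjusted p = 1.22e-04), DDIT3 (0.74, adjusted p = 7.48e-04) and DDIT4 (0.43, adjusted p = 0.0252). ATF4 was at 0.12 and CHAC1, which degrades glutathione, at -0.01. Of 8 heat shock genes 3 passed higher, HSPA1B (0.82, adjusted p = 9.29e-04), whose reads can be shared with its near-identical copy HSPA1A, DNAJB1 (0.35, adjusted p = 0.0419) and HSPB1 (0.31, adjusted p = 0.0455). Of 5 tested AHR targets, a list that holds NQO1 too, 3 passed higher: CYP1A1 (0.86, adjusted p = 0.0059), CYP1B1 (1.36, adjusted p = 0.0304) and TIPARP (0.42, adjusted p = 0.0335). CYP1B1 was under 3 CPM in every HEC-1A library. In T-HESC 0 of the 10, 8 and 3 genes tested in these lists passed with edgeR.

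The T-HESC libraries that stood high for the 9 genes did so for only some of the wider pathway. Of the 88 genes of the 6 lists tested in T-HESC, 43 were highest among the controls in DMSO replicate 3 (48.9%, with 39.5% of all genes) and 36 were lowest there (40.9%, with 42.0%). In 27 of them DMSO replicate 3 was the highest control and AG-205 replicate 2 the highest treated library (30.7%, with 17.6% of all genes), and in 16 both were the lowest (18.2%, with 17.0%). The following examples of either kind were picked after their values were seen. GSR was 70.0, 82.0 and 117 CPM in T-HESC DMSO and 103, 112 and 69.3 CPM in T-HESC AG-205. PGD was 177, 178 and 337 CPM and 120, 488 and 265 CPM in the same order. AKR1C1, an aldo-keto reductase whose reads can be shared with its close paralogues, was 1.58, 3.31 and 28.6 CPM and 21.8, 82.2 and 7.21 CPM. DMSO replicate 3 was the highest control for each of the 3 genes, and AG-205 replicate 2 the highest treated library. TXNIP, the inhibitor of thioredoxin, ran the other way, at 340, 311 and 82.8 CPM with DMSO and 151, 78.1 and 242 CPM with AG-205. So did GPX4, at 276, 262 and 177 CPM with DMSO and 574, 212 and 343 CPM with AG-205. Both were lowest in DMSO replicate 3 and in AG-205 replicate 2, as was PRDX2, a cytosolic peroxiredoxin, at 182, 167 and 137 CPM and 168, 146 and 151 CPM.

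The genes most like the 9 were sought among 11999 others tested in both lines, by Pearson's r with the mean profile of the 9 over the 12 libraries, each gene being centred and scaled within its line. The closest was UGDH, the UDP-glucose dehydrogenase that supplies glucuronic acid for conjugation and is itself a member of the heme and quinone list (r = 0.96). FHIP2A and PCYOX1 (both 0.93) and PIK3C2A and DENND4C (both 0.92) came next, and the tenth, CLCN3, was at 0.89. UGDH was 82.2, 98.0 and 156 CPM in T-HESC DMSO and 120, 176 and 115 CPM in T-HESC AG-205, and 85.8 to 89.8 CPM and 91.0 to 104 CPM in HEC-1A. Its 2 highest T-HESC libraries were AG-205 replicate 2 and DMSO replicate 3. This follows from how UGDH was chosen and is no further instance of the pattern. These values of r describe 12 libraries that also share their scaling factors. Within T-HESC, r with the mean profile ran from 0.55 (SRXN1) to 0.95 (GCLC) for the 9 genes themselves, which are part of that mean, and within HEC-1A it ran from -0.64 (NQO1) to 0.86 (HMOX1).

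Counting could blur some of these values. Besides SRXN1, OSGIN1 shares 8.22% of its exon length with MLYCD on the same strand, and GCLC shares 6.14% with a noncoding gene on the same strand. NQO1, SLC7A11 and GCLC share 19.4%, 8.97% and 3.54% with antisense genes, and the strand setting of the counting is not given in the sources used here. HMOX1, GCLM, TXNRD1 and ME1 share no exon with another gene in GENCODE 44.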

How the data were processed

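The 12 libraries comprised 3 per group. Per the submitters' processing notes and the study's methods, the authors used Trimmomatic (0.38) for trimming, HISAT2 (2.1.0) for alignment, with GRCh38 as genome, and featureCounts of Subread (2.0.0) for counting per Ensembl gene. The deposited values are raw counts. Symbols came from a name table, and 528 genes had none. The 9 genes and all lists were chosen with earlier results of these data known.

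edgeR 4.0.16 (R 4.3.3) was used with filterByExpr, TMM scaling and the quasi-likelihood test, on the 6 libraries of a line, on the 6 DMSO libraries, or on all 12 for the difference between lines; DESeq2 1.42.0 and limma 3.58.1 served as alternatives. The procedure was tested on simulated data. These were drawn without deviations shared by the genes of a library, so that test does not cover the spread seen in T-HESC. In the lists, genes that passed are named, with up to 3 that define a list; others are marked as picked after their values were seen. Likeness and principal components used log2(CPM + 1). Exon lengths and positions came from GENCODE 44, promoters from RefSeq, and plots from matplotlib 3.10.9. Depth was 7168542 to 15178276 counts; 95% intervals rest on 3 libraries per group.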

Additional observations from a re-analysis of the deposited data

How the results depend on the processing

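HMOX1 stayed positive in both lines under every alternative run, and in HEC-1A 1 gene stayed called under all but 2: 0 in the fit of all 12 libraries and 2 with no fold limit. In T-HESC 1 was called without the filter on low counts, 1 in the fit of all 12 and 2 with library quality weights, which also gave 1 for the difference between lines. Between the DMSO groups 3 were called, 5 with library weights, 5 with no fold limit and 3 to 5 leaving out single libraries, the 5 without T-HESC DMSO replicate 3. The cause was not tested.

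Several log2 fold changes turned sign, and not all of them had been near 0. In the main fit NQO1 between the DMSO groups was 0.46, and SRXN1 in the difference between lines was -0.31. Leaving out single libraries gave -0.22 to 0.27 (SRXN1) and -0.0090 to 0.14 (SLC7A11) in HEC-1A; -0.84 to 0.72 (NQO1), -0.23 to 0.27 (GCLM), -0.44 to 0.60 (TXNRD1), -0.67 to 0.67 (SRXN1) and -0.95 to 0.94 (SLC7A11) in T-HESC; and -0.38 to 0.78 (NQO1) between the DMSO groups. For the difference between lines these ranges were -0.27 to 0.53 (HMOX1), -0.73 to 0.85 (NQO1), -0.31 to 0.19 (GCLM), -0.090 to 0.11 (GCLC), -0.37 to 0.69 (TXNRD1), -0.70 to 0.64 (SRXN1), -0.998 to 0.90 (SLC7A11) and -0.090 to 0.41 (ME1). Library quality weights turned NQO1 (0.89), GCLM (0.18), SRXN1 (0.80) and SLC7A11 (1.08) in T-HESC, NQO1 between the DMSO groups (-0.23), and NQO1 (1.04), GCLM (0.13), SRXN1 (0.53) and SLC7A11 (1.02) in the difference. GCLM was 0.0067 in T-HESC in the fit of all 12, and GCLC -0.061 in the difference with upper-quartile scaling.

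The labels number the replicates 1 to 3 in each group. Deviations of same-numbered libraries correlated at -0.104, 0.31 and -0.000164 in HEC-1A and 0.185, -0.562 and -0.0287 in T-HESC, and not every library correlated best with its own number, so the numbers were not taken to pair the libraries. The highest T-HESC correlations were 0.719, for AG-205 replicate 2 with DMSO replicate 3, and 0.494, for AG-205 replicate 1 with DMSO replicate 2. With the replicate number as a block, 1, 0 and 0 genes were called in HEC-1A, T-HESC and the difference, as without it; SLC7A11 turned to 0.071 in T-HESC, and NQO1 (0.091) and SLC7A11 (0.015) turned in the difference.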
